A study of Mus musculus with 2 samples.

Results

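The genes described here are 9 transcriptional regulators. They are Runx1, Runx2 and Runx3 of the Runx family, Ebf1, Ebf2 and Ebf3 of the Ebf family, and Tal1, Lmo2 and Gfi1. Not all are chiefly regulators of blood development: Runx2 is better known from bone, and Ebf2 and Ebf3 from fat and nerve cells. All 9 genes were chosen by name, with earlier results of these data known. Their occupancy by Ring1B was read from promoter arrays hybridised with chromatin of mouse embryonic stem (ES) cells, the pluripotent cells of the early embryo. Of the 9 genes, 8 had probes under their name, 338 of the 474222 usable probes of the 2 slides, and they were compared with all 16846 genes that had at least 3 probes. Runx3 had no probe under its symbol or a RefSeq synonym and was not analysed here.

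The study was a chromatin immunoprecipitation with a monoclonal antibody to Ring1B, with no other genotype or treatment in the labels. Immunoprecipitated DNA (IP) carried the dye Cy5 and input chromatin carried Cy3, both after linker-mediated PCR. Slides 1 and 2 cover different chromosomes, so each promoter was measured once, on 1 array, with no replicate, no control antibody and no cells lacking Ring1B. No test of a difference was therefore possible: all spreads below are standard deviations (SD) over the probes of a gene, which share chromatin fragments and are not replicates of the cells. The titles name ES cells and the source names begin with the word Muscle. The ES line was not named, and with DNA and no RNA measured the cell type could not be checked against marker genes.

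Ring1B (Rnf2) is the catalytic core of Polycomb repressive complex 1, which ubiquitylates histone H2A and keeps developmental genes silent in cells that do not use them. In mammals the complex gathers at CpG islands, stretches of DNA rich in the dinucleotide CG, around the starts of such genes. Runx proteins bind DNA with the shared subunit Cbfb: Runx1 is needed for the first blood stem cells, Runx2 for bone and Runx3 in T cells and sensory neurons. Ebf1 specifies B cells, while Ebf2 and Ebf3 are best known from fat and nerve cells. Tal1, a basic helix-loop-helix factor, and Lmo2, a LIM-domain bridging protein, work in 1 complex in blood stem cells and red cells, and Gfi1 is a zinc-finger repressor of blood stem cells and granulocytes.

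The value of a probe is the log2 of the IP signal over the input signal, minus the median probe of its slide, so 0 is the typical probe and 1 is a ratio 2-fold above it. Before this centring the slide medians were 0.23 and 0.16, and the SD over all probes of a slide was 1.33 and 1.44. Depth on an array is signal over background: input stood well above background at 74.2% and 76.3% of probes, and 18.3% and 15.5% of probes lay at the scanner software's floor in both channels, where the ratio carries no measurement. Input was well above background at 295 of the 338 member probes, 21 were at the floor in both channels and none was saturated.

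Ring1B signal was high over 5 of the 8 measured genes. Ebf2, Ebf3, Tal1, Ebf1 and Gfi1 had mean values of 1.85, 1.79, 1.41, 1.41 and 1.38, which placed each among the top 1% of genes, at ranks 35, 45, 136, 137 and 152 of 16846. Runx1 followed at 0.83 and Lmo2 at 0.35, and Runx2 was at -0.29, below the typical gene's -0.10. At or above 1 stood 5 of 8 members, against 1.99% of all genes (336), and at or below -1 stood 0 of 8, against 1.86% (314). Because the genes were chosen with earlier results of these data known, such shares describe them and are no evidence of an excess. Of the single probes, 196 of 338 (58.0%) were at or above 1, against 19.7% of all probes, and 32 (9.47%) were at or below -1, against 20.6%. High and low genes were thus nearly as many over the array, and their balance moved with the scaling: the high genes were 51.7% of the called ones here, 87.8% (445 against 62) after normexp background correction, 89.2% (431 against 52) with the authors' deposited value table, 80.0% (503 against 126) without centring, 62.6% after correction for GC content, 65.0% among genes with at least 20 probes, 39.3% (431 against 667) without floor probes and 23.6% (385 against 1243) without probes of dim input.

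The order of the 8 genes was Ebf2, Ebf3, Tal1, Ebf1, Gfi1, Runx1, Lmo2 and Runx2. The steps between neighbours in this order ran from 0.00 to 0.64, and every step was smaller than the smallest SD over probes of any member, 0.97. Neighbours thus lay within the spread of single probes, which is a description and no test of whether their means differ.

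**Figure D1:**
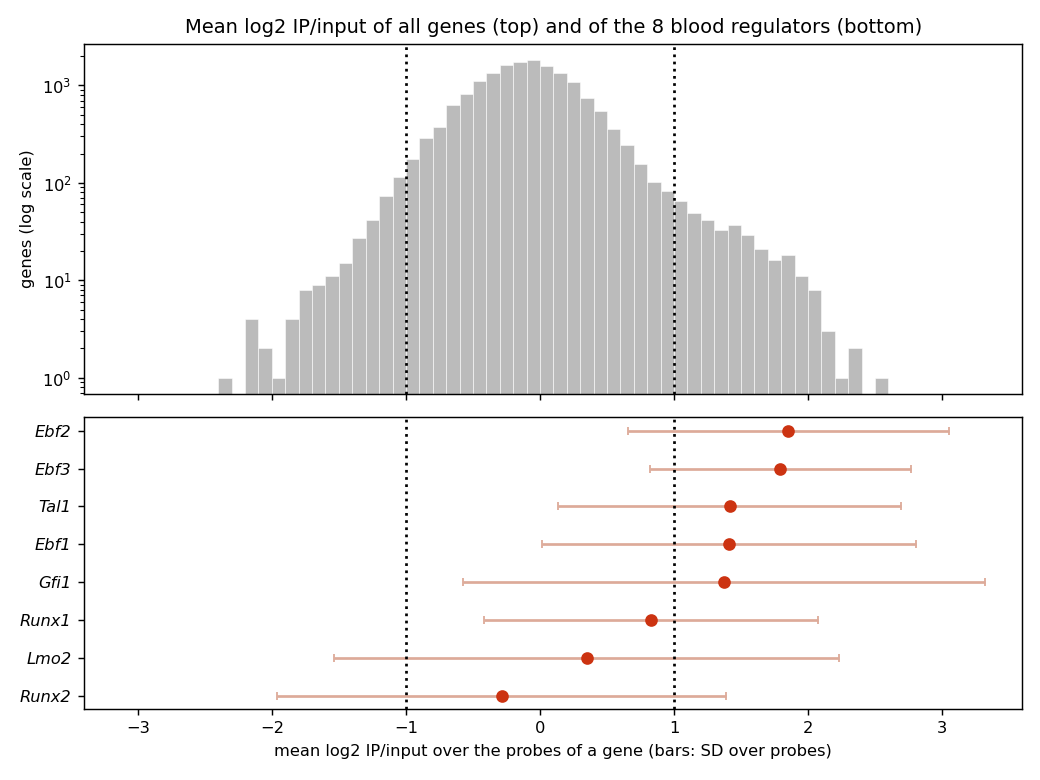
Upper panel: number of genes (log axis) by mean centred log2 IP over input of a gene, over all 16846 genes; lower panel: the means of the 8 measured regulators (points) with bars of 1 SD over the probes of the gene, in order of the mean. Dotted lines mark -1 and 1; Ebf2, Ebf3, Tal1, Ebf1 and Gfi1 lie above 1, and the bars of neighbours overlap throughout.

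Width was the second measure. A region was taken as a run of at least 3 probes whose running mean, over probes within 500 bp on either side, was at least 1, with gaps under 1000 bp. The same 5 genes held such a region of at least 2000 bp, 5 of 8 against 3.05% of all genes (514), and 0 of 8 held a region of that length at or below -1, against 0.991% (167). Long regions were where the signs parted over the whole array: runs of at least 500 bp were more often low (6927) than high (4024), runs of at least 2000 bp were more often high (511 against 145), and at 4000 bp or more 118 were high and 2 were low. Ebf2, Ebf3 and Gfi1 held a region of at least 4000 bp, against 0.801% of all genes.

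**Figure D2:**
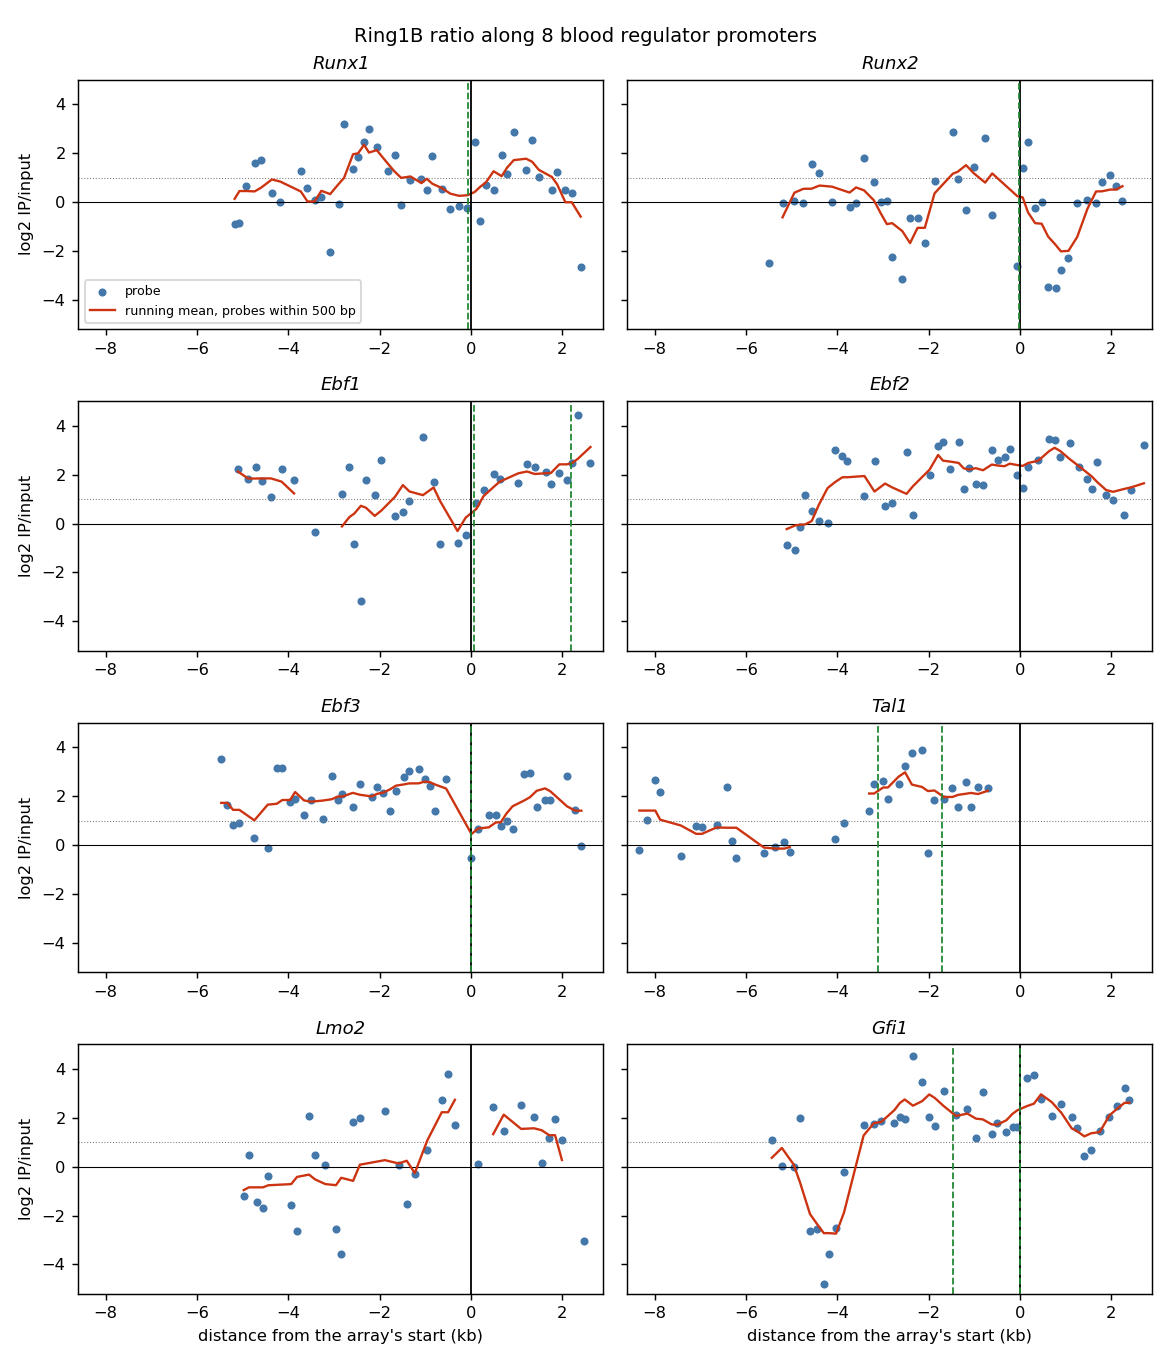
Centred log2 IP over input of each probe (points) and the running mean over probes within 500 bp (line) against distance from the array's annotated start in kb, with the direction of transcription to the right; the black vertical line is that start and dashed green lines are RefSeq starts matched by probe sequence. The line stays above 1 over most of the Ebf2 and Gfi1 tiles, dips at the start of Ebf3 and Ebf1, and rises and falls around 0 over Runx2, whose inner probes are not drawn.

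All 3 Ebf genes were at or above 1, and they differed in the width and evenness of their signal. Ebf2 (slide 2, chr14:62085336-62093210 in the array's coordinates, plus strand) had 46 probes with a lowest value of -1.08, a median of 2.10 and a highest of 3.47, a mean of 1.85 ± 1.19 (SD over 46 probes). Values at or above 1 were found at 35 of them and a value at or below -1 at 1. Its region measured 6982 bp over 40 probes, from 4214 bp before the start to 2712 bp inside the gene, with a mean of 2.14. It was the longest region of the 8 genes and ran to the end of the tiled stretch, so its length is a lower bound. The mean was 1.70 upstream of the start, 2.15 inside the gene and 2.50 within 1000 bp of the start.

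Ebf3 (slide 1, chr7:133716896-133724840, minus strand) had 45 probes with a lowest value of -0.54, a median of 1.84 and a highest of 3.52, a mean of 1.79 ± 0.97 (SD over 45 probes). Its probes were the most alike of any member, and none was at or below -1. Signal lay on both sides of the start and was weakest just inside it. The mean was 2.18 in the last 1000 bp before the start, over 3 probes. It was 0.72 in the first 1000 bp of the gene and 2.22 in the next 1000 bp. The nearest upstream probe was centred 546 bp before the start, and the signal between that probe and the start was not measured. The lowest probe of the gene lay 9 bp inside it. The dip split the signal into a region of 4976 bp upstream, with a mean of 2.01, and one of 1688 bp inside the gene, with a mean of 1.70, and both reached the end of the tiles. The bin with the dip had a GC content of 62.5%, and its mean was 0.74 after subtraction of the typical value of probes of the same GC content.

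Ebf1 (slide 2, chr11:44569664-44577435, plus strand) had 37 probes with a lowest value of -3.15, a median of 1.78 and a highest of 4.46, a mean of 1.41 ± 1.39 (SD over 37 probes). Its signal was highest inside the gene, with means of 2.10 there and 0.99 upstream. It had 3 high regions, of 2387 bp from 273 to 2615 bp inside the gene (mean 2.20), 1289 bp (mean 1.89) and 894 bp (mean 1.39). Those of 2387 and 1289 bp reached an end of the tiles, so their lengths are lower bounds. Within 1000 bp of the array's start the mean fell to 0.71, so Ebf1 was not at or above 1 when only those probes were used. RefSeq gives Ebf1 a second start further downstream, and probes around each start were read apart by matching the promoter sequences to the probes. Around the first start the mean was 0.81 ± 1.18 (SD over 9 probes, from -0.85 to 2.01), and around the second, 2128 bp downstream, it was 2.41 ± 0.82 (SD over 9 probes, from 1.62 to 4.46). All 9 probes around the downstream start were above 1, and the 2 sets of probes overlapped between 1.62 and 2.01.

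The RefSeq promoter sequences (GRCm38.p6, 250 bases before to 50 after a start) of the 2 Ebf1 starts and of Ebf3 are shown because the signal differed between them; CG dinucleotides, the letters on which CpG islands are defined and which read the same on both strands, are in capitals, 5′ to 3′ along the gene.
Ebf1 promoter, chr11:44617850-44618149, plus strand, 9 CG: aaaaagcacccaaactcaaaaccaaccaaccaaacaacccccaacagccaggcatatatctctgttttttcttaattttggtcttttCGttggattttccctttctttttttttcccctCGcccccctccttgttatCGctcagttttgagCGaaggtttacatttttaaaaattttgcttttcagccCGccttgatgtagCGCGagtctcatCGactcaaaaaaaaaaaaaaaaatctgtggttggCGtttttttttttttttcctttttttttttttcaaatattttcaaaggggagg
Ebf1 promoter, chr11:44619978-44620277, plus strand, 17 CG: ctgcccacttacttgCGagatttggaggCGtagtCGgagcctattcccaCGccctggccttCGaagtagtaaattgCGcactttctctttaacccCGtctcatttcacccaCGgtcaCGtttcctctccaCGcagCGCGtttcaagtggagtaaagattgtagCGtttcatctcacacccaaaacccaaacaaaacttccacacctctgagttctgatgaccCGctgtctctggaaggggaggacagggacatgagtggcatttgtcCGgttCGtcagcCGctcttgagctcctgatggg
Ebf3 promoter, chr7:137314396-137314695, minus strand, 46 CG: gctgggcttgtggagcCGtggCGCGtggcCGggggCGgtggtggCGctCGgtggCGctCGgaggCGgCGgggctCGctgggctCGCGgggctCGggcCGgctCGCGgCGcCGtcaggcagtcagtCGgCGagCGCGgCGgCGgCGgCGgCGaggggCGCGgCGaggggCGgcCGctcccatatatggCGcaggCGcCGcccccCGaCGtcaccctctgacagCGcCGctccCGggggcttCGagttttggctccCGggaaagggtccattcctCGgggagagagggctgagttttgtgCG
Over 32851 RefSeq promoters of this length the median was 7 CG. At least as many as the first Ebf1 promoter were found in 45.8% of them, as the second in 31.4%, and as Ebf3 in 1.65%. The Ebf3 promoter was the richest in CG of the 6 members with a promoter matched to probes. Its probes within 1000 bp had a mean of 1.16, below the 2.41 of the second Ebf1 start. No probe was centred in the 250 bases before the Ebf3 start, so that mean does not cover most of the sequence shown.

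No Ebf probe was at the floor: 0 of 128 had both channels there. The signals behind the highest Ebf1 probe, which lay 2339 bp inside the gene, were 22579 in the IP and 919 in the input. Those behind the highest Ebf2 probe, 642 bp inside the gene, were 12430 and 1005. The lowest Ebf3 probe, in the dip at the start, had signals of 127 and 158, and its input was above background. These 3 probes are shown, with CG in capitals, because they mark the top and the dip of the Ebf profiles.
Ebf1 highest probe, chr11:44577115-44577159 in the array's coordinates: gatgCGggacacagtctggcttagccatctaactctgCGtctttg
Ebf2 highest probe, chr14:62091090-62091136 in the array's coordinates: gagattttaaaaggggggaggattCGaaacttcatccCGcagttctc
Ebf3 lowest probe, chr7:133719310-133719354 in the array's coordinates: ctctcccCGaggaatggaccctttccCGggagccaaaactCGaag

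Tal1 and Lmo2, which act together as proteins, had unequal means. Tal1 (slide 1, chr4:114427599-114435289, plus strand) had 34 probes with a lowest value of -0.51, a median of 1.57 and a highest of 3.88, a mean of 1.41 ± 1.28 (SD over 34 probes). None of its probes was at or below -1, and 20 were at or above 1. All of its probes lay upstream of the start that the array annotates, the nearest 706 bp from it, but RefSeq gives Tal1 starts within the tiled stretch. Its main region measured 2655 bp over 17 probes, from 3304 to 706 bp before the annotated start, with a mean of 2.23, and a shorter one of 513 bp had a mean of 1.41. Both reached the end of a tiled stretch. Probes within 1000 bp of the RefSeq start with 11 CG in its promoter had a mean of 2.29, and those around the start with 22 CG had a mean of 2.27; the windows overlap and share probes. Further upstream, between 5000 and 6000 bp before the annotated start, the mean was -0.14.

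Lmo2 (slide 1, chr2:103816010-103823515, plus strand) had 32 probes with a lowest value of -3.57, a median of 0.48 and a highest of 3.78, a mean of 0.35 ± 1.88 (SD over 32 probes). Of these, 14 were at or above 1 and 9 were at or below -1. High and low probes were mixed upstream, where 7 of 22 had a value of 1 or more and 8 one of -1 or less. Inside the gene 7 of 10 were at or above 1 and 1 was at or below -1, at -3.02. The mean was 1.84 within 1000 bp of the start and 0.99 inside the gene, against 0.06 upstream. A high region of 655 bp (mean 2.23) lay from 957 to 354 bp before the start. Another of 1409 bp (mean 1.68) lay from 484 to 1840 bp inside the gene, and the bin from 4000 to 5000 bp upstream was at -0.85. Lmo2 thus missed the value of 1 over its whole tile and passed it near its start, where 7.86% of all genes with probes were also at or above 1.

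The highest Tal1 probe lay 2146 bp before the annotated start, with signals of 18101 in the IP and 1050 in the input. The highest Lmo2 probe lay 502 bp before its start, with signals of 5741 and 356. Both are shown because they carry the peaks of the 2 profiles.
Tal1 highest probe, chr4:114433797-114433841 in the array's coordinates: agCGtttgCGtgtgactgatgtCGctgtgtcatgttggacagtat
Lmo2 highest probe, chr2:103820480-103820534 in the array's coordinates: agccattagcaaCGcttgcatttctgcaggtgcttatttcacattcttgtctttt

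Gfi1 (slide 1, chr5:106899263-106907148, minus strand) had both the highest and the lowest probe of the 8 genes. Its 44 probes had a lowest value of -4.81, a median of 1.78 and a highest of 4.51, a mean of 1.38 ± 1.95 (SD over 44 probes), and 34 were at or above 1. The high region measured 5875 bp over 34 probes, from 3426 bp before the start to 2396 bp inside the gene, with a mean of 2.17, and it reached the end of the tiles. Upstream of it lay a low region of 794 bp over 6 probes, from 4600 to 3856 bp before the start, with a mean of -2.72. There the median input signal was 1656 and the median IP signal 226, none of the 6 probes was at the floor, and the mean after GC correction was -2.68. At 5 of the 6 probes the input signal was above 1000 and the value was -2.49 or lower; the remaining probe had signals of 109 in the input and 108 in the IP, the latter not well above background, and a value of -0.24. Its RefSeq starts, with 10 and 16 CG in their promoters, had means of 2.23 and 2.41 within 1000 bp, in windows that overlap.

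The Gfi1 probes at the 2 extremes are shown with CG in capitals. The highest lay 2345 bp before the start, with signals of 4871 in the IP and 182 in the input, and held 2 CG. The lowest lay 4298 bp before the start, with signals of 105 and 2509, and held none.
Gfi1 highest probe, chr5:106904001-106904053 in the array's coordinates: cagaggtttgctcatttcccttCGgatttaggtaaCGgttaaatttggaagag
Gfi1 lowest probe, chr5:106905951-106906010 in the array's coordinates: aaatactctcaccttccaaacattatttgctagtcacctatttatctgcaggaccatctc

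Neither of the 2 measured Runx genes was at or above 1. Runx1 (slide 2, chr16:92749021-92756647, minus strand) had 45 probes with a lowest value of -2.66, a median of 0.68 and a highest of 3.19, a mean of 0.83 ± 1.25 (SD over 45 probes). Of these, 20 were at or above 1 and 2 were at or below -1. Its mean was much the same upstream (0.79), inside the gene (0.90) and within 1000 bp of the start (0.85), but shorter stretches differed. Bins of 1000 bp ran from -0.87, over 2 probes at the upstream end, to 1.99 from 3000 to 2000 bp before the start. The last 1000 bp before the start were at 0.37 and the first 1000 bp inside at 1.26. Runx1 had a high region of 1322 bp (mean 1.47) from 494 to 1770 bp inside the gene. Another of 959 bp (mean 2.01) lay from 2584 to 1676 bp before the start, and both were under 2000 bp. After normexp background correction its mean was 1.02, so that 6 of 8 genes were then at or above 1, against 2.64% of all genes. The tiled start has 35 CG in its RefSeq promoter, a number that 6.95% of RefSeq promoters reach, and the mean around it was 0.68 ± 1.00 (SD over 12 probes). The other RefSeq start of Runx1, with 2 CG, matched no probe and was not analysed here.

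Runx2 (slide 2, chr17:42900562-42943449, minus strand) was the only measured member below 0. Its 55 probes had a lowest value of -3.53, a median of -0.03 and a highest of 3.29, a mean of -0.29 ± 1.67 (SD over 55 probes). Low probes outnumbered high ones, with 14 of -1 or less and 11 of 1 or more. It was also the dimmest member: the median input signal was 93.4 against 461 to 1385 in the other 7 genes, input was well above background at 31 of 55 probes, and 15 were at the floor in both channels. Without the floor probes its mean was -0.40 over 40 probes, where the median gene, read the same way, was at -0.14. Over the 31 probes with input well above background its mean was -0.98, where the median gene, read the same way, was at -0.28. This filter acts on the input, the denominator of the ratio. It left out the highest Runx2 probe (3.29) and kept the lowest (-3.53, with an input signal of 1048). Over all genes it raised those at or below -1 from 314 to 1243, so -0.98 is not a cleaner reading than -0.29. The 41 probes around the start had a mean of -0.16 ± 1.62 and the 14 probes of a stretch far inside the gene one of -0.66 ± 1.81. It held 1 high region, of 523 bp (mean 1.23), and low regions of 761, 698 and 553 bp (means -1.64, -2.42 and -1.54). Its highest probe had an input signal of 56.6 that was not well above background. Around the RefSeq start the mean was -0.49 ± 2.32 (SD over 11 probes).

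The promoters of the tiled Runx1 and Runx2 starts are shown, with CG in capitals, because they differ in CG content. The untiled Runx1 promoter holds 2 CG, as many as the tiled Runx2 promoter. The difference is thus between the tiled starts and not between the genes as a whole.
Runx1 promoter, chr16:92697280-92697579, minus strand, 35 CG: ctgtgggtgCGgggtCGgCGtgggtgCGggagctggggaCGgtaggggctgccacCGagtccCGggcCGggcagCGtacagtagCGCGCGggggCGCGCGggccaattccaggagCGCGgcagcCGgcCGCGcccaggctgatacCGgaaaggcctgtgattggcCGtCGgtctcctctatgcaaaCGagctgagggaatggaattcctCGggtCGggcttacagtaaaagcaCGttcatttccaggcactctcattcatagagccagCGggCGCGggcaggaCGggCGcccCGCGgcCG
Runx2 promoter, chr17:44814578-44814877, minus strand, 2 CG: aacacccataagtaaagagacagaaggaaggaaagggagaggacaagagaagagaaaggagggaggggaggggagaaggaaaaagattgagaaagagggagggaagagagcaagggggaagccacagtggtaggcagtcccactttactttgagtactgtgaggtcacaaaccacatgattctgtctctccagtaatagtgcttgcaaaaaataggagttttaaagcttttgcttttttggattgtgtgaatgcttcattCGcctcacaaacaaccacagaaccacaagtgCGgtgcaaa
The Runx1 promoter holds 35 CG and the Runx2 promoter 2, and 85.9% of all promoters have at least 2. The letters TGTGGT, which Runx proteins recognise, were searched on both strands, overlapping matches included. The Runx2 promoter holds them 3 times, a count that 0.183% of all promoters reach, and the tiled Runx1 promoter holds none. A run of 18 bases with 2 copies of the motif (in capitals) is shared by the Runx2 promoter, the untiled Runx1 promoter and 1 of the 2 Runx3 promoters.
Shared run: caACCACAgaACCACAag
It begins 21 bases after the Runx2 start, 26 bases after the untiled Runx1 start and 136 bases before the Runx3 start. It was found in 4 of the 32851 promoters, on either strand. The array bears on it only at Runx2, where the probes within 1000 bp had the mean of -0.49 given above.

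**Figure D3:**
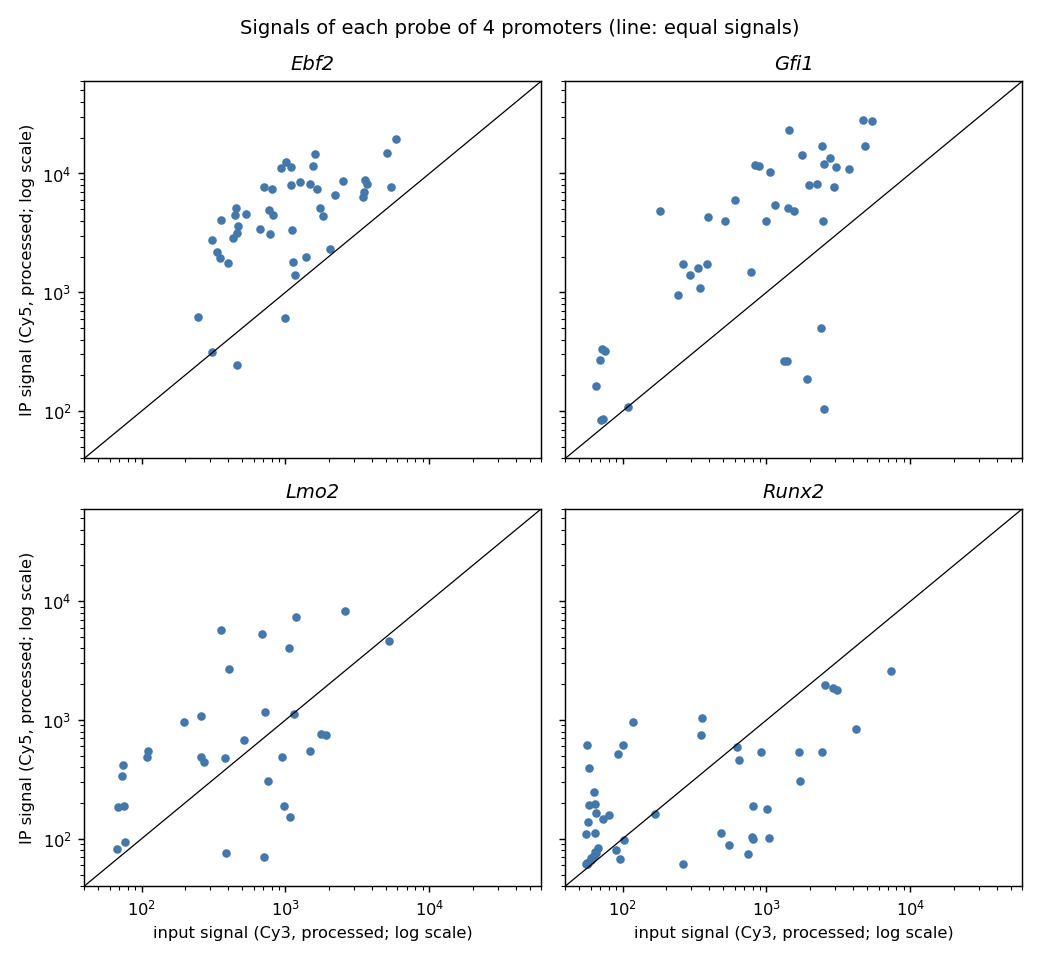
IP signal (vertical) against input signal (horizontal) of each probe of Ebf2, Gfi1, Lmo2 and Runx2, in the scanner software's processed units on log axes, with the line of equal signals. Most Ebf2 and Gfi1 probes lie above the line, 5 low Gfi1 probes lie far below it at bright input, Lmo2 probes lie on both sides, and many Runx2 probes crowd at the dim end of both axes.

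CG content moved with the values. Over the members' probes the mean was 0.50 at the 135 probes without CG, 1.11 at the 107 with 1, 1.74 at the 80 with 2 or 3 and 2.16 at the 16 with 4 or more. Over all named probes the same classes had means of -0.17, -0.04, 0.18 and 0.36, a step in the same direction and smaller. The members' classes mix genes unequally: of the 135 probes without CG, 36 were of Runx2 and 19 of Lmo2, the lowest members. The share of probes at or above 1 did not rise in the last class. It went from 77.5% to 75.0% in the members and from 27.3% to 22.1% over all named probes. Per 100 bases of probe the members ranged from 0.65 CG in Runx2 and 1.20 in Lmo2 to 4.29 in Ebf3, where the median gene had 1.25. The relation was not the same in each gene. In Gfi1, the 19 probes without CG averaged 0.21 and the 25 with CG 2.26. Those without CG included all 5 Gfi1 probes at or below -1, which lay together in its low region, so CG content and position coincided there. In Ebf3 the 10 probes without CG averaged 2.01 and the 35 with CG 1.73, and in Runx2 the means were -0.19 and -0.46. The part of CG content in the members' values was not tested.

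In all, 3 further gene sets were read beside the members, which include Ebf2 and Ebf3, the highest, and Runx2, the lowest. Those 3 genes are better known from tissues other than blood, so the members are not a set of blood genes alone. Of 22 partners and paralogues of the members, 20 were measured. Of these, 0 reached 1, against 1.99% of all genes, and 0 were as low as -1, against 1.86%. With shares this small, 0 in a list of 20 does not set the partners apart from the array. Their median was -0.09, next to -0.10 for all genes and 1.39 for the members. The highest were Zfp521 (0.81), a zinc-finger partner of Ebf1, Tcf12 (0.61), a helix-loop-helix partner of Tal1, Lmo1 (0.50), a paralogue of Lmo2, and Tle3 (0.49), a corepressor. Of the 20, 1 (Lmo1) held a high region of at least 2000 bp, against 3.05% of all genes, and 1 (Cbfa2t3, with a mean of -0.58) a low one, against 0.991%. The lowest were Ldb2 (-0.64), a LIM-domain binding adaptor, and Cbfa2t2 (-0.68), a corepressor.

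Of 45 transcription factors of blood lineages outside the members, 42 were measured. Values of 1 or more were found for 11 (26.2%, against 1.99% of all genes) and of -1 or less for 0 (against 1.86%), and the median was 0.26. This list too was chosen with earlier results of these data known, so its share is a description and no evidence of an excess. A high region of at least 2000 bp was held by 13 of the 42, against 3.05% of all genes, and a low one by 1 (Tbx21, with a mean of -0.05), against 0.991%. Cbfa2t3 and Tbx21 are named here after their values were seen. The highest were Lef1 (2.02 ± 1.29, SD over 37 probes) of the Wnt pathway, the zinc-finger factors Gata3 (1.92 ± 1.10, 45 probes) and Gata2 (1.85 ± 0.83, 43 probes), and the homeobox gene Hoxa9 (1.71 ± 0.78, 25 probes). Gata2, which joins Tal1 and Lmo2 in their complex, had a mean like that of Ebf2. The lowest were Klf1 (-0.82), a factor of red cells, and Spib (-0.87), one of B cells.

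Of 45 receptors, enzymes and surface proteins of blood cells, 38 were measured, and the median was -0.35. Of the 38, 0 reached 1, against 1.99% of all genes, a share too small for a list of this size to fall visibly below it. The highest were the growth factor receptors Flt3 (0.64), Kit (0.55) and Epor (0.53) and the T cell receptor subunit Cd3e (0.37). Of the 38, 1 (Kit, the stem cell factor receptor) held a high region of at least 2000 bp and 0 a low one, against 3.05% and 0.991% of all genes. Among the lowest was Cd3g (-0.99), another subunit of the T cell receptor complex. The median CG content per 100 probe bases was 0.90 in this set, 1.62 in the partners, 1.89 in the transcription factors and 2.14 in the members, so the sets also differed in sequence, and the part of that difference was not tested.

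**Figure D4:**
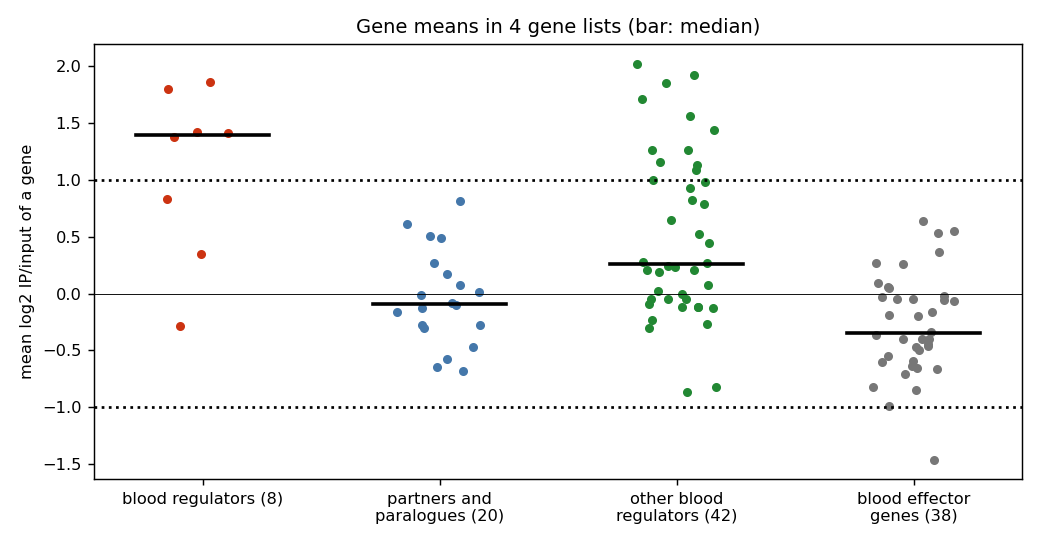
Mean centred log2 IP over input of every measured gene (points) in the members, their partners and paralogues, blood transcription factors and blood effector genes. Bars mark the median of each set and dotted lines -1 and 1. Points are spread sideways for view only. The members' median is 1.39 and those of the other sets are -0.09, 0.26 and -0.35. At or above 1 lie 11 of 42 transcription factors and none of the 20 partners or 38 effectors, against 1.99% of all genes.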

How the data were processed

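Each slide was read from its scanner output. The deposited values are spot intensities in the red (IP) and green (input) channels, background-subtracted and dye-normalised by Agilent Feature Extraction 9.1.3.1 with its CGH protocol, per the file headers. The authors' deposited value table holds log2 ratios that equalled the log2 ratio of mean signals within 5e-05; it served as an alternative. From the processed intensities, log2(IP/input) was taken without control or outlier spots and centred on the slide's median probe, with no loess. Gene values are means over probes. The 17096 array names were matched to RefSeq by symbol (12588), synonym (3875) or accession (1), and 632 kept the array's name. No genome build for the array's coordinates is given in the sources used here, and RefSeq sequences were tied to probes by exact sequence match, with no conversion of coordinates. With 1 array a slide, no p-value was computed; the number of arrays limits the precision, and neighbouring probes within 300 bp correlated at 0.41 and 0.40.

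All 9 members were named; other genes were named as the 4 highest and 2 lowest of each list, of which a result in the effector list is not reported here. Members and lists were chosen with earlier results of these data known. Ebf2 and Lmo2 promoters were not used here. Alternatives were normexp (offset 50, limma 3.58.1 in R 4.3.3), the value table, no centring, GC correction in classes of 5% and other filters, thresholds and windows. The region and gene scripts (Python 3.11.15) were tested on simulated data.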

Additional observations from a re-analysis of the deposited data

How the results depend on the processing

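Ebf1, Ebf2, Ebf3, Tal1 and Gfi1 stayed above 0 under each alternative run, and so did Runx1 and Lmo2. Ebf2, Ebf3 and Gfi1 were at or above 1 in 9 of 9 alternatives, Tal1 in 8 of 8 and Ebf1 in 8 of 9. Runx1 and Lmo2 reached 1 in 1 of 9 each and Runx2 in 0 of 9. The count of 5 members at or above 1 was 6 after normexp and at a threshold of 0.75, and 2 at a threshold of 1.5. Within 1000 bp of the start it was 4 of 7 (Tal1 has 2 probes there, under the minimum of 3). These 4 were not all of the same set: Ebf2, Ebf3 and Gfi1 stayed, Lmo2 joined at 1.84 and Ebf1 fell to 0.71. The share of all genes at or above 1, 1.99%, was 2.64% after normexp and 2.99% without centring. It was 7.86% within 1000 bp of the start, 3.48% at a threshold of 0.75 and 0.653% at 1.5. A region of at least 4000 bp was held by 3 members. The median gene, -0.10, moved to 0.10 without centring, to 0.01 after normexp and with the value table, and to -0.28 without probes of dim input. Lmo2 ranged from 0.17 to 1.84 and Runx2 from -0.98 to -0.03 over the alternatives. No paired analysis was possible because each promoter was measured on 1 array. The depth of these data is signal over background, and it limits Runx2 most, with 15 of 55 probes at the floor. No antibody control or replicate bears on any value.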
